A study of Rattus norvegicus with 16 samples.

Results

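The strain difference in small arteries was examined in established hypertension, by comparing the spontaneously hypertensive rat (SHR) with the normotensive Wistar-Kyoto rat (WKY) at 5 months of age. It rests on 6 of 16 arrays and 4 of 12 RNA pools, chosen from the labels as the arrays of this age that passed quality control. The WKY group consisted of 1 pool of WKY/NCrL and 1 pool of WKY/NTac, each on 1 array. The SHR group consisted of 1 pool of SHR/NCrL and 1 pool of SHR/SP, each on 2 arrays that carried the same RNA. In the fit these arrays entered separately, joined by a common correlation within a pool (0.444). SHR/SP is the stroke-prone substrain, and the other names denote colonies kept by different suppliers, so that each pool is also a genetically separate subline.

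All animals were male, and each pool combined higher-order branches of the mesenteric artery from 5 animals, cleaned of fat and blood with endothelium and adventitia in place. Each array compared the Cy3-labelled RNA of 1 pool with a Cy5-labelled reference mixed from all test samples. The values given here are log2 ratios of pool over reference, so that 0 is the level of the mixture and a difference of 1 is a doubling. No dyes were swapped. Sublines are not replicates of 1 colony, so the p-values measure the spread between sublines as well as between pools. In part they also measure the spread between repeat arrays of a pool. Both strains were also measured at 6 weeks, a stage taken as pre-hypertensive. There were 3 pools per strain at that age, and they entered the fit as further groups.

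Small arteries set peripheral resistance through the tone of their smooth muscle and the structure of their wall. In hypertension they are known to remodel inward, a change that involves smooth muscle, extracellular matrix and signals from the endothelium. SHR and WKY share an ancestral stock but differ at many loci, so a difference between them in adulthood can be one of strain or one that follows pressure, and these cannot be told apart in this comparison alone.

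The share of spots well above background for the Cy3 label was 65.7% to 69.3% over the 6 arrays, with no spot saturated. Repeat arrays of a pool correlated at 0.635 (SHR/NCrL) and 0.652 (SHR/SP) over all 30367 probes, against 0.42 between the SHR pools and 0.396 between the WKY pools. These are correlations across probes within the data, which are not independent. The other arrays of this age, from SHR/NHsd and WKY/NHsd, failed quality control and had 60.4% and 56.5% of spots above background, and they were left out unless stated.

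At 5 months, 115 of 30367 probes differed between the strains at an adjusted p under 0.05 (0.379%, against 7.9% at an unadjusted p under 0.05), 60 of them higher in SHR (0.198%) and 55 lower (0.181%). The differences ranged from 0.65 to 3.49 on the log2 scale among the probes that were higher and from 0.67 to 4.27 in size among those that were lower. Over 2-fold differences were found for 79 of the called probes, 44 higher and 35 lower. The pools of the strains did not overlap for any of the 115 called probes, whereas 37.8% of all probes had pools that did not overlap. A gene name was found for 89 of the called probes, which stand for 88 genes, and 26 probes have no name here.

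How many probes were called depended on how the repeat arrays were counted. With the arrays of each pool averaged to 1 value, 11 probes were called, 4 higher and 7 lower, among them *Thbs4*, *RT1-CE10*, *Pcmtd1*, *Slitrk5*, *Mettl24*, *Trim55*, *Map7* and *RT1-CE5*. Leaving out 1 pool gave 19 calls without WKY/NCrL, 52 without WKY/NTac, 10 without SHR/SP and 145 without SHR/NCrL, and 5 of the 115 probes were called in all 4 of these fits (*RT1-CE10*, *Pcmtd1*, *Slitrk5*, *Mettl24* and the unnamed probe A_64_P021924). Because the pools of the strains did not overlap for any called probe, leaving out 1 pool could not turn its direction.

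**Figure D1:**
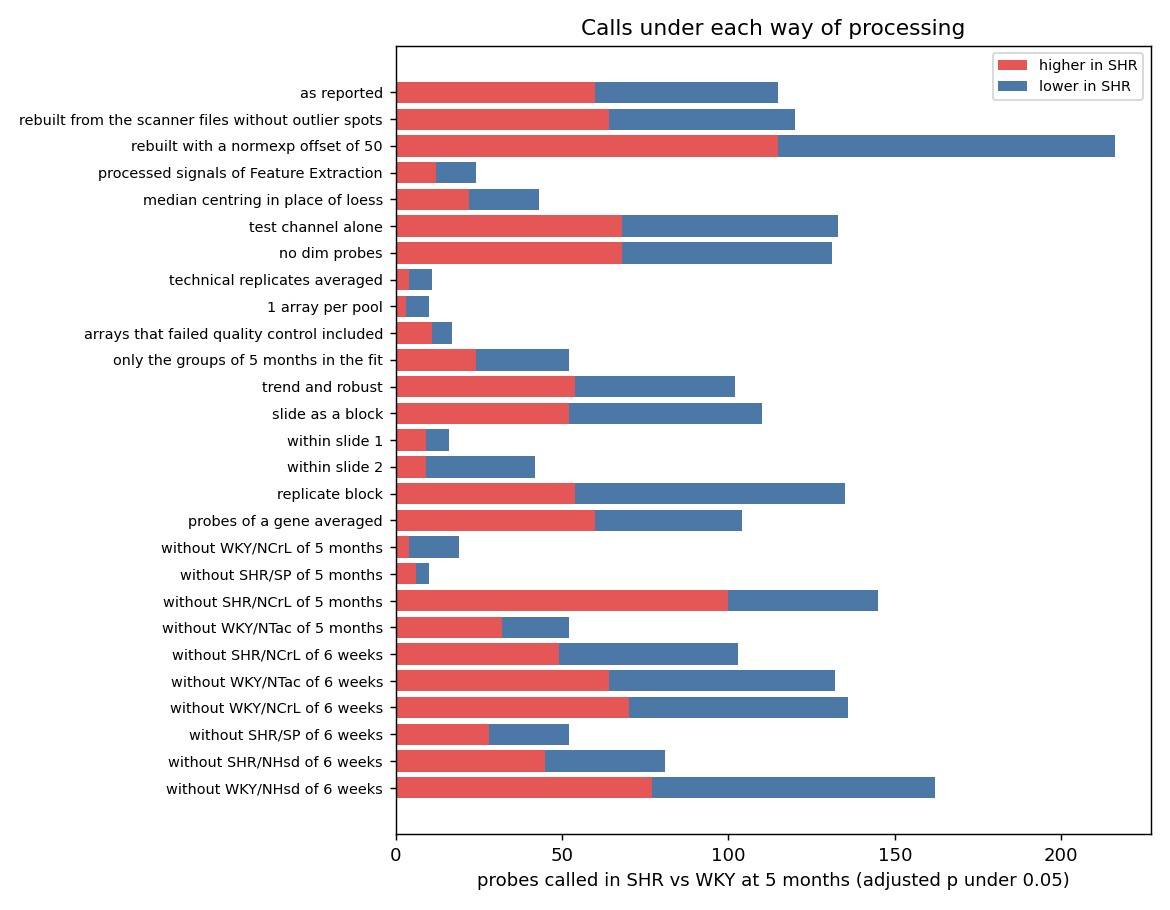
Number of probes called between the strains at 5 months (x axis) under each way of processing or without 1 pool (y axis), with probes higher in SHR in red and lower in SHR in blue. Calls ran from 10, with 1 array per pool or without SHR/SP, to 216 with a background offset of 50, around the 115 reported.

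**Figure D2:**
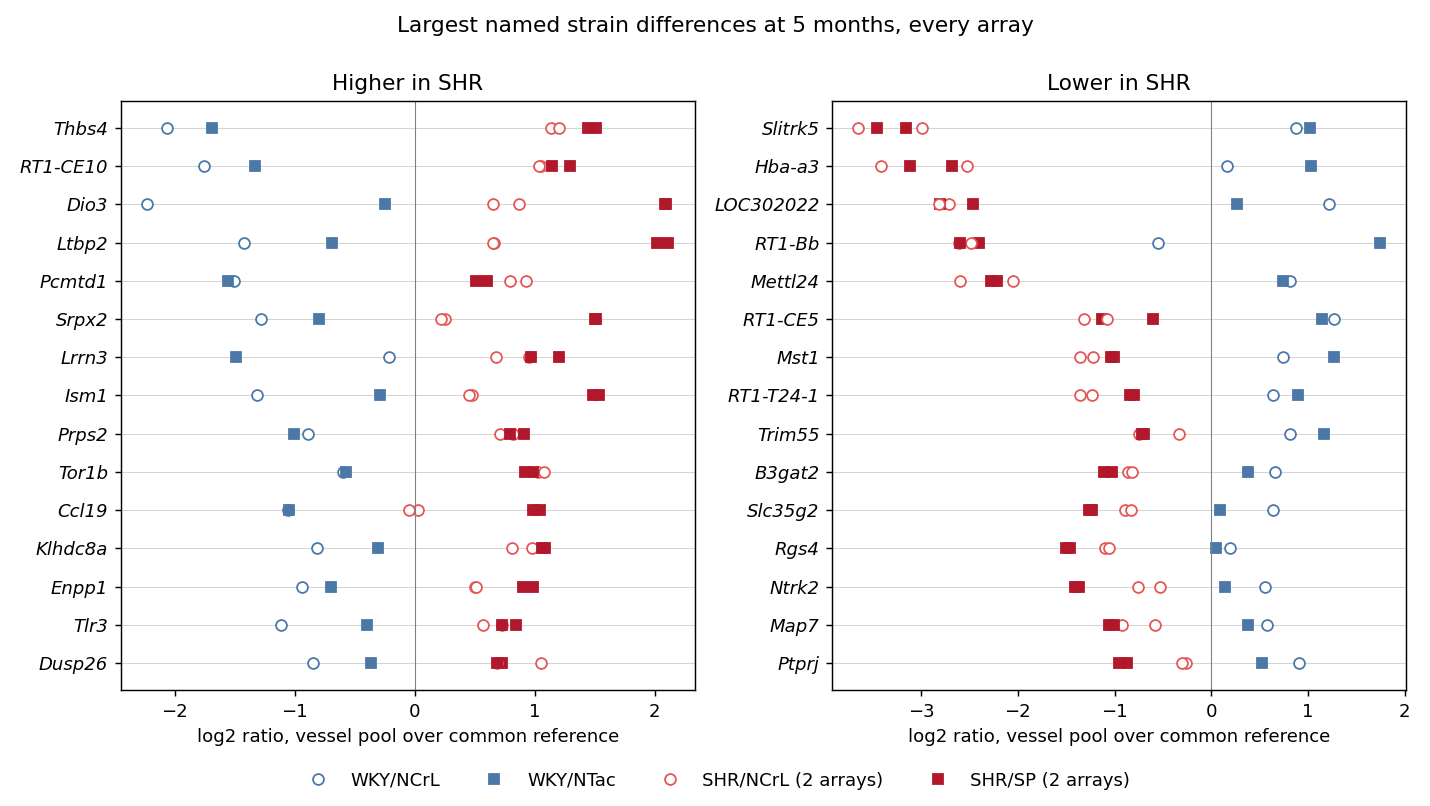
Log2 ratio of pool over reference (x axis) for the 15 named genes with the largest rise (left) and the 15 with the largest fall (right) in SHR, with 1 point per array. Blue symbols are the WKY pools and red symbols the SHR pools, each SHR pool on 2 arrays, and the strains overlap for none of these genes: *Thbs4* was at -2.06 and -1.69 in WKY and between 1.13 and 1.51 in SHR.

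The promoters of 3 called genes are shown to place the results on the genome. They are the windows of *Thbs4*, the named gene with the largest rise, and of *Dio3* and *Rgs4*, a rise and a fall that have TATAAA shortly before the start. Each is the stretch of 250 bases before the RefSeq start in the rat assembly GRCr8, written 5′ to 3′ on the strand of the gene, with matches on either strand in capitals: the TATA box motif TATAAA, the CCAAT box and the GC box motif GGGCGG. The cyclic AMP response motif TGACGT was searched in the same way. The windows are chr2:25760346-25760595 on the minus strand for *Thbs4*, chr6:135106822-135107071 on the plus strand for *Dio3* and chr13:84475885-84476134 on the minus strand for *Rgs4*.
Thbs4: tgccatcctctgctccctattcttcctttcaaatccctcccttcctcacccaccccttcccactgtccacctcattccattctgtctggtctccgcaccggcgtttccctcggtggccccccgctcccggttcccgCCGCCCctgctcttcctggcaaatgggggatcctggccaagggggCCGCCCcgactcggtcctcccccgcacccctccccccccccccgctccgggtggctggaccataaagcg
Dio3: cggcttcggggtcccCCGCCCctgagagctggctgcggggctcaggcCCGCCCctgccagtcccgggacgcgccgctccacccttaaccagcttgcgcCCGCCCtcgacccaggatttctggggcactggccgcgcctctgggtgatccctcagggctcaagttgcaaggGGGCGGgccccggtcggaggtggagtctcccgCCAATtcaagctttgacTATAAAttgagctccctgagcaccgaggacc
Rgs4: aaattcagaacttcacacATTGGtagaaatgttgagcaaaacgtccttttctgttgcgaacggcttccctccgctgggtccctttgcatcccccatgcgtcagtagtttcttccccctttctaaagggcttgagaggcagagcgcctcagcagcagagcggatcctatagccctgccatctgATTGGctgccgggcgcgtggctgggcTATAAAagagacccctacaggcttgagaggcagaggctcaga
TATAAA began 31 bases before the start in *Dio3* and 42 bases before it in *Rgs4*, and the *Thbs4* window held GGGCGG on the opposite strand at 69 and 114 bases before the start and no TATAAA. Of the 88 named genes, 68 had a promoter in the table (250 bases before and 50 after the start), 38 of genes higher in SHR and 30 of genes lower. TATAAA on the coding strand within the last 50 bases before the start was found in 5 of the 38 (13.2%), in 2 of the 30 (6.67%) and in 2.46% of all 27457 promoters. The genes were *Dio3*, *Map1b*, *RT1-CE15*, *RT1-CE3* and *Tent5a* among those higher and *Hba-a3* and *Rgs4* among those lower. *RT1-CE15* and *RT1-CE3* belong to a family of near-identical copies, so they may not be separate matches. All 27457 promoters were counted whether or not the gene had a named probe on the array, so the sets are not alike. Anywhere in the window and on either strand, TATAAA was found in 13.2%, 13.3% and 14.3% of the promoters, CCAAT in 44.7%, 43.3% and 37.7%, GGGCGG in 55.3%, 46.7% and 34.9%, and the CArG box of smooth muscle genes in 0, 0 and 1.64%. TGACGT was found in 5.26%, 10% and 8.22%. These are letter matches and no measure of a factor's binding.

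Among matricellular proteins, which are secreted into the wall and modulate cells without being structural, *Thbs4* stood out. Thrombospondin 4 was at -2.06 in WKY/NCrL and -1.69 in WKY/NTac, and at 1.13 and 1.20 on the arrays of SHR/NCrL and 1.51 and 1.44 on those of SHR/SP. Both SHR pools were thus above the reference and both WKY pools below it. The difference was 3.20 (SE 0.40, adjusted p = 0.00336), or 9.18-fold, from -1.88 ± 0.26 in WKY to 1.32 ± 0.22 in SHR (SD, n = 2 pools each). Without SHR/SP or without WKY/NCrL its adjusted p was 0.075 and 0.051. On the arrays that failed quality control it was not higher in SHR, with -0.45 in WKY/NHsd and -1.10 in SHR/NHsd, and with them included the difference was 2.02, its lowest under any setting.

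*Thbs4* was the only called gene of 13 matricellular genes measured, against 0.379% of all probes, and 12 of the 13 were higher in SHR with a median difference of 0.43, against 0.01 and 51.7% higher over all probes. The lists were drawn up with earlier results known, and the study had already named *Thbs4*, *Tor1b*, *Enpp1*, *Tlr3*, *RT1-CE10* and *RT1-CE3*. Lists also use the brightest probe per gene, whereas the 0.379% covers all probes, dim ones included. Counts of called members, here and below, are therefore no evidence of enrichment. *Spp1* (osteopontin) was at -1.81 and -0.80 in WKY and at -1.11 and 2.76 in SHR/NCrL and SHR/SP, so that its difference of 2.13 (SE 0.86, adjusted p = 0.50) came from 1 pool. *Postn* (periostin) was likewise high in SHR/SP (0.55) and lower in SHR/NCrL (-1.51), WKY/NTac (-1.45) and WKY/NCrL (-2.68). *Thbs1* and *Thbs2*, the best known thrombospondins, differed by 0.01 and 0.44 and were not called.

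None of 14 structural matrix genes was called, with 11 higher and 3 lower and a median of 0.15. *Col3a1* had the largest difference at 0.91 (adjusted p = 0.38), *Col1a1* differed by 0.50, *Fbn1* and *Col1a2* by 0.46 each. *Col1a1*, *Col1a2* and *Col3a1* were below the reference in all 4 pools and lowest in WKY/NCrL, where *Col1a1* was at -3.06 against -2.05 in WKY/NTac, -1.72 in SHR/NCrL and -2.39 in SHR/SP. Matrix genes outside this list were among the called probes, picked out here after their values were seen: *Loxl1*, a cross-linking enzyme of elastin (0.81, SE 0.16, adjusted p = 0.0462), *Col18a1*, the precursor of endostatin (0.89, SE 0.17, adjusted p = 0.0362), and *Layn*, a hyaluronan receptor (1.20, SE 0.18, adjusted p = 0.00743). *Loxl1* was at -0.19 and 0.05 in WKY and at 0.60 and 0.88 in SHR/NCrL and SHR/SP, and *Col18a1* at -0.65 and -0.38 against 0.25 and 0.49. These are all rises, whereas LOC302022, which the study names as similar to a nidogen, was called lower and is given below.

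*Ltbp2*, which codes for a microfibril protein of the latent TGF-β binding family, was the only called member of 25 growth and remodelling genes, against 0.379% of all probes. It was at -1.42 and -0.69 in WKY/NCrL and WKY/NTac, at 0.66 and 0.65 on the arrays of SHR/NCrL and at 2.11 and 2.02 on those of SHR/SP. The strains did not overlap, although the SHR pools stood well apart. The difference was 2.41 (SE 0.39, adjusted p = 0.0124), and a second *Ltbp2* probe rose by 1.76 with an adjusted p of 0.0505, the smallest of any probe that was not called. Of the list, 16 genes were higher and 9 lower with a median of 0.15. Those next in size were *Igf2* at -1.23 (adjusted p = 0.32), *Timp1* at 1.19 (0.22), *Ltbp1* at 0.83 (0.062) and *Pdgfa* at 0.71 (0.069), with *Tgfb1* itself at 0.62 (0.25).

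Genes of extracellular pyrophosphate and mineral balance, which keep calcium phosphate from forming in the vessel wall or promote it, had 3 called members of 12, all higher in SHR, against 0.379% of all probes. *Enpp1*, which makes pyrophosphate from ATP, was at -0.94 and -0.69 in WKY and at 0.51 and 0.95 in SHR/NCrL and SHR/SP, a difference of 1.54 (SE 0.20, adjusted p = 0.00413). *Bmp2*, an osteogenic growth factor, was at -0.22 and -0.41 against 1.01 and 0.55 (difference 1.09, SE 0.19, adjusted p = 0.0169). *Mgp*, an inhibitor of vascular calcification, was at -0.23 and -0.34 against 0.29 and 0.87 (difference 0.87, SE 0.17, adjusted p = 0.0462). The list thus holds both a promoter and inhibitors of mineral among its rises. The pyrophosphate exporter *Ankh* (0.56) and the phosphatase *Alpl* (0.47) were higher but not called, and the median was 0.35 with 8 of 12 higher.

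Chaperones and folding enzymes of the endoplasmic reticulum had 1 called member of 17, against 0.379% of all probes. *Tor1b*, a torsin ATPase of the endoplasmic reticulum and nuclear envelope, was at -0.60 and -0.57 in WKY and at 1.05 and 0.95 in SHR, with a difference of 1.58 (SE 0.24, adjusted p = 0.00781) and almost no spread within either strain. In this list 13 genes were higher with a median of 0.21. *Hspa5*, the master chaperone BiP, differed by 0.21 (adjusted p = 0.91), *Calr* by 0.41, *Creld2* by 0.42 and *Sdf2l1* by 0.49, none of them called.

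Of 13 sensors and transcription factors of the unfolded protein response none was called, 7 being higher and 6 lower with a median of 0.00. *Herpud1*, a protein of ER-associated degradation, had the largest difference (0.82, SE 0.19, adjusted p = 0.10) and *Xbp1* differed by 0.38 (0.41). *Atf6*, a membrane-bound sensor, was read by a pair of probes that disagreed. The brighter was at 0.75 and -0.18 in WKY/NCrL and WKY/NTac and at -0.23 and -0.38 in SHR/NCrL and SHR/SP (difference -0.59, SE 0.28, adjusted p = 0.65). The other was at -0.08 and 0.28 against 0.15 and 0.18 (difference 0.07, SE 0.20, adjusted p = 0.99). No difference in *Atf6* was thus detected at 5 months with 2 pools per strain.

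**Figure D3:**
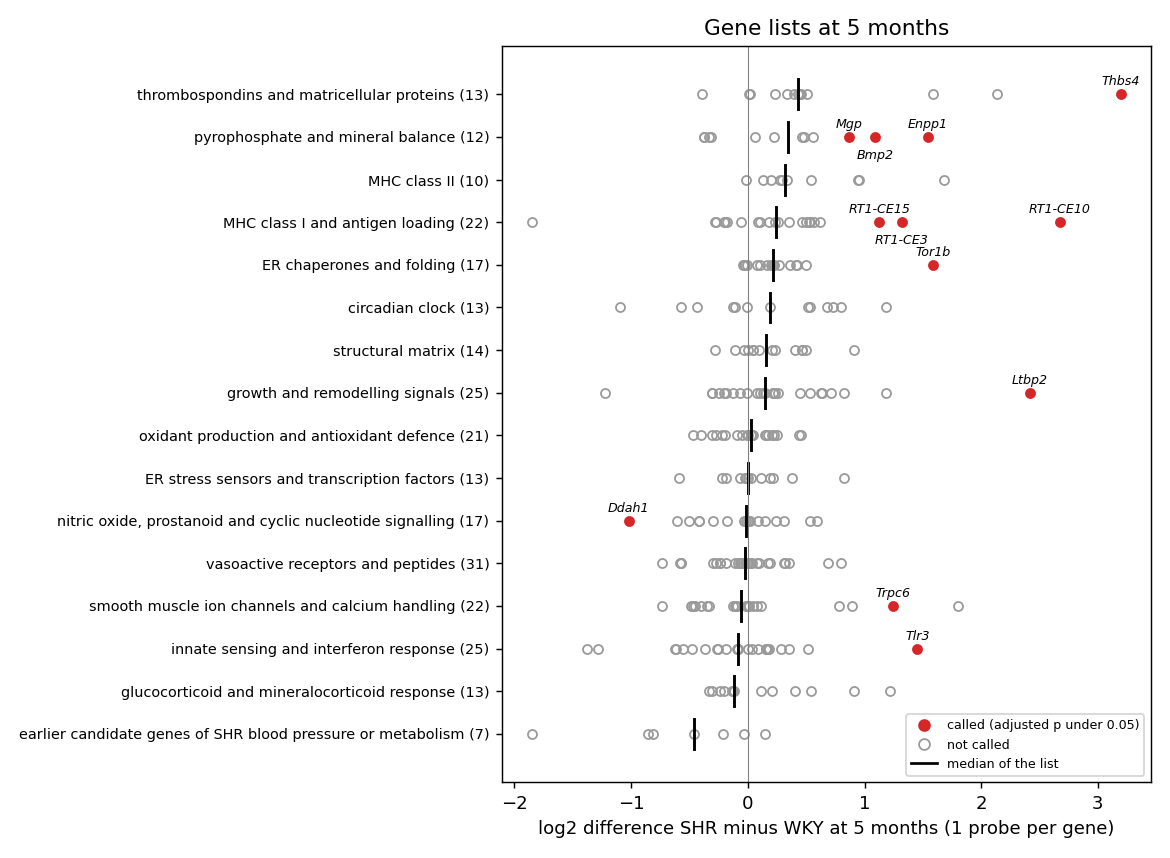
Log2 difference SHR minus WKY at 5 months (x axis) for the members of 16 gene lists, 1 probe per gene, with the number of genes measured in parentheses. Filled red points are called genes and black bars are list medians. Most members lie near 0, and the called ones are 11 rises, from *Mgp* at 0.87 to *Thbs4* at 3.20, and 1 fall, *Ddah1* at -1.02.

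Genes of the major histocompatibility complex were among the probes with the largest differences. Its class I genes present peptides on nearly all cells and its class II genes on antigen-presenting cells, and both are highly polymorphic between strains. In the rat the complex is called RT1 and holds many near-identical copies, so a probe cannot be assigned to 1 copy with certainty.

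Of 22 class I and antigen-loading genes 3 were called when the brightest probe of each was used, all higher, against 0.379% of all probes, with a median of 0.25 and 15 of 22 higher. *RT1-CE10* was at -1.76 and -1.33 in WKY, at 1.05 and 1.04 on the arrays of SHR/NCrL and at 1.29 and 1.15 on those of SHR/SP. The 4 SHR arrays lay close together and far from WKY, with a difference of 2.67 (SE 0.18, adjusted p = 3.89e-06). *RT1-CE3* and *RT1-CE15* rose by 1.32 (SE 0.24, adjusted p = 0.0228) and 1.13 (SE 0.21, adjusted p = 0.0276).

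For some RT1 genes, probes of the same gene disagreed. *RT1-CE5* fell by 2.24 on the probe that was called (1.27 and 1.15 in WKY, -1.20 and -0.87 in SHR, adjusted p = 0.00408, above background on 1 of 4 SHR arrays), while its brighter probe differed by 0.35 and was not called. The called probe of *RT1-T24-1* fell by 1.82 (adjusted p = 0.0102) and its brighter one differed by -0.29. *RT1-Bb*, a class II β chain, fell by 3.12 on the called probe, from -0.55 and 1.75 in WKY to -2.55 and -2.50 in SHR (SE 0.43, adjusted p = 0.00512, above background on 2 of 4 SHR arrays), and was 1.68 higher on the brighter probe (adjusted p = 0.39). The genes that load peptides were not called: *B2m* differed by 0.18, *Tap1* by -0.20, *Tap2* by -0.27 and *Tapbp* by 0.23.

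The class II list had no call by its brightest probes, with 9 of 10 higher and a median of 0.32. Its members were high or low together by pool. *Cd74*, the invariant chain, was at -1.44 in WKY/NCrL and -0.23 in SHR/NCrL, but at 0.53 in WKY/NTac and 1.20 in SHR/SP, and *RT1-Da* and *RT1-Db1* had the same order. Macrophage markers moved with them: all 8 were higher in SHR with a median of 0.51, but their mean level was -0.95 in WKY/NCrL, 0.41 in WKY/NTac, -0.19 in SHR/NCrL and 0.83 in SHR/SP, so the strains overlapped and none was called. The part of these cells in the class II values was not tested.

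*Tlr3*, the endosomal receptor for double-stranded RNA, was the only called member of 25 genes of innate sensing and the interferon response (0.379% of all probes were called), and both of its probes were called. The brighter was at -1.23 and -0.40 in WKY and at 0.50 and 0.78 in SHR/NCrL and SHR/SP (difference 1.45, SE 0.25, adjusted p = 0.0195), and the other rose by 1.48 (SE 0.26, adjusted p = 0.0221). Of the 25 genes, 11 were higher and 14 lower with a median of -0.08. *Cxcl10* was at 1.51 and 0.03 in WKY against -1.11 and -0.11 in SHR (difference -1.38, adjusted p = 0.28), *Rsad2* differed by -1.28 (0.16), *Irf1* by -0.62 (0.12) and *Mx1* by 0.00. *Ccl19*, a chemokine that draws lymphocytes and dendritic cells, was 1.55 higher (SE 0.31, adjusted p = 0.0462). Picked out after their values were seen, *Sigirr*, an inhibitor of interleukin 1 and Toll-like receptor signalling, was 0.99 lower (adjusted p = 0.0336) and *Nod1*, a sensor of bacterial peptidoglycan, 0.72 lower (adjusted p = 0.023), while a brighter *Nod1* probe differed by -0.24 (adjusted p = 0.78).

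Ion channels and calcium-handling genes of smooth muscle had 1 called member of 22, against 0.379% of all probes. *Trpc6*, a receptor-operated cation channel that admits calcium, was at -0.80 and -0.97 in WKY/NCrL and WKY/NTac, at 0.17 and 0.03 on the arrays of SHR/NCrL and at 0.60 and 0.64 on those of SHR/SP. The difference was 1.25 (SE 0.19, adjusted p = 0.00906). *Ano1*, the calcium-activated chloride channel, had the larger difference of 1.80 (SE 0.38), but its pools spread widely (-1.80 and -0.93 in WKY, -0.36 and 1.23 in SHR) and its adjusted p was 0.061. *Kcnmb1*, the β subunit of the large-conductance potassium channel, was at -0.42 and -0.13 against 0.60 and 0.63 (difference 0.89, adjusted p = 0.17). The L-type calcium channel *Cacna1c* (-0.10), the potassium channel *Kcnma1* (0.01) and the calcium pump *Atp2a2* (0.00) differed little, and the median was -0.05 with 9 of 22 higher.

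Receptors and peptides that set tone gave no call among 31 genes, 14 higher and 17 lower with a median of -0.03. The largest differences were those of *Npy1r* (0.80, adjusted p = 0.23), *Ace* (-0.74, 0.081), *Ptgir* (0.69, 0.20) and *Npr3* (-0.58, 0.73). *Ace*, the angiotensin-converting enzyme of the endothelium, was at 0.27 and 0.47 in WKY and at -0.29 and -0.45 in SHR. The angiotensin receptor *Agtr1a* (0.01), the endothelin receptor *Ednra* (-0.03) and the adrenoceptor *Adra1a* (-0.27) were among those with small differences. *Htr1b*, a serotonin receptor that mediates vasoconstriction, was outside the list and picked out after its values were seen. It was at -0.02 and 0.07 in WKY and at 1.06 and 1.23 in SHR, a difference of 1.12 (SE 0.19, adjusted p = 0.0176).

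*Ddah1*, which degrades the nitric oxide synthase inhibitor asymmetric dimethylarginine, was the only called member of 17 genes of nitric oxide, prostanoid and cyclic nucleotide signalling, against 0.379% of all probes. It was at 0.39 and 0.48 in WKY/NCrL and WKY/NTac and at -0.64 and -0.53 in SHR/NCrL and SHR/SP, a fall of 1.02 on the log2 scale (SE 0.18, adjusted p = 0.0221). A second, dimmer *Ddah1* probe differed by -0.49 (adjusted p = 0.26). *Nos3*, the endothelial nitric oxide synthase, was at 0.39 and 0.08 against -0.08 and -0.66 (difference -0.61, adjusted p = 0.33), and *Ptgs1*, a cyclooxygenase, was higher by 0.59 (0.42). The list median was -0.02.

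*Rgs4*, which shortens the signal of receptors coupled to Gq and Gi and whose promoter is printed above, was at 0.19 and 0.05 in WKY, at -1.10 and -1.05 on the arrays of SHR/NCrL and at -1.46 and -1.50 on those of SHR/SP. Its difference was -1.40 (SE 0.18, adjusted p = 0.00366), and *Rgs11*, of the same family and picked out after its values were seen, went the other way (1.23, SE 0.22, adjusted p = 0.0221).

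The following genes were picked out after their values were seen, since each is known from the endothelium. *Gja5*, the gap-junction protein connexin 40, was at 0.43 and 0.54 in WKY against -0.25 and -0.94 in SHR/NCrL and SHR/SP (difference -1.08, SE 0.19, adjusted p = 0.0199). *Thbd*, the anticoagulant receptor thrombomodulin, was at 0.55 and 0.78 against -0.26 and -0.47 (difference -1.03, SE 0.17, adjusted p = 0.0128). Its second probe differed by -0.83 (adjusted p = 0.0535). *Cx3cl1*, the membrane-bound chemokine fractalkine, was at 0.83 and 0.36 against -0.48 and -0.90 (difference -1.28, SE 0.22, adjusted p = 0.0199). Endothelial markers moved the same way but none was called: 7 of 8 were lower in SHR with a median of -0.39, and their mean was 0.02 and -0.04 in WKY and -0.22 and -0.44 in SHR. *Pecam1* differed by -0.47 and *Tie1* by -0.57, while *Cdh5*, a defining junction protein, differed by 0.14. All 8 markers were well above background on all 6 arrays. Fewer cells of a type and less RNA per cell cannot be told apart in whole vessels, and the part of endothelial content in *Gja5*, *Thbd* and *Cx3cl1* was not tested.

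**Figure D4:**
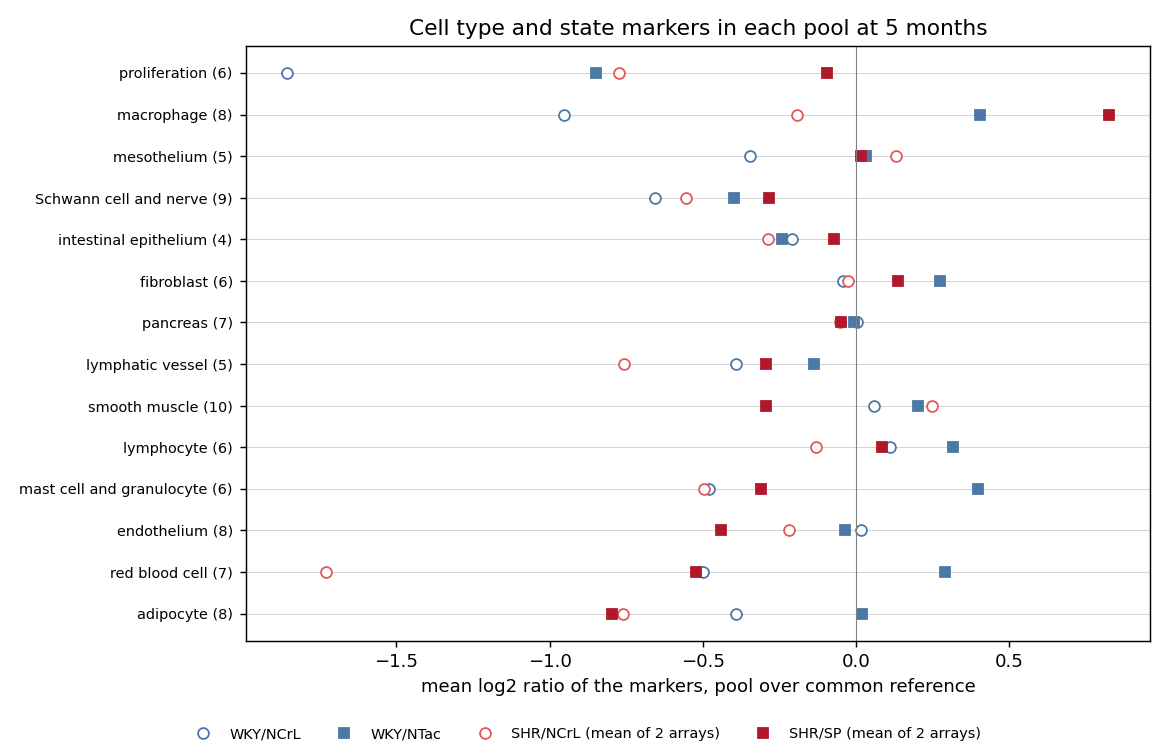
Mean log2 ratio over the markers of each cell type or state (x axis) in each of the 4 pools at 5 months, with the number of markers measured in parentheses. Open circles are the NCrL pools, squares WKY/NTac and SHR/SP, blue WKY and red SHR. The strains do not overlap for endothelium, adipocytes, red blood cells (by a narrow gap, -0.50 against -0.52), lymphocytes, proliferation and the pancreas markers. They overlap for the rest, and 37.8% of single probes do not overlap. The pancreas markers were mostly at background, and only 1 of 6 lymphocyte markers was well above background on all 6 arrays.

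Smooth muscle, a part of the artery wall, was present by its markers. All 10 smooth muscle genes measured were well above background on all 6 arrays. Among them *Acta2*, *Myh11* and *Tagln* differed by -0.07, -0.35 and -0.12. These markers were not chosen to tell artery from other tissue with smooth muscle, so the label of artery was not tested. Of the smooth muscle list 8 genes were lower in SHR with a median of -0.19, and the mean was -0.29 in SHR/SP against 0.06 to 0.25 in the other 3 pools. Markers of pancreas and intestinal epithelium were mostly at background and none was called. Adipocyte markers were lower in both SHR pools (means of -0.76 and -0.80) than in WKY/NCrL (-0.39) and WKY/NTac (0.02), with 7 of 8 lower, a median of -0.64 and no call. At 6 weeks the same list had a median of 0.80 in the opposite direction, with WKY/NTac far below the other WKY pools in several members. *Fabp4* was then at -1.60 in WKY/NTac against 0.55 in WKY/NCrL and 0.51 in WKY/NHsd. In SHR/NCrL, SHR/SP and SHR/NHsd it was at 0.00, 1.39 and 1.48. *Cfd*, *Cidec* and *Lpl* were also lowest in WKY/NTac at that age. *Adipoq* at 5 months was at -0.96 and -0.47 in WKY and at -1.22 and -1.45 in SHR.

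The 6 proliferation genes measured were all higher in SHR with a median of 0.75. *Cdk1* was at -2.77 in WKY/NCrL, -1.08 in WKY/NTac, -0.99 in SHR/NCrL and 0.10 in SHR/SP (difference 1.48, adjusted p = 0.25), and *Ccna2* was at -2.85, -1.07, -0.81 and -0.22 (difference 1.45, adjusted p = 0.23). WKY/NTac and SHR/NCrL were thus close to each other, and the difference came from WKY/NCrL at the low end and SHR/SP at the high end. *Racgap1*, which acts in cytokinesis and was picked out from outside the list after its values were seen, was called (1.15, SE 0.23, adjusted p = 0.0412).

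The largest fall on the log2 scale was that of a gene known from the nervous system. *Slitrk5*, a leucine-rich repeat membrane protein known from neurons, was at 0.88 and 1.03 in WKY, at -3.65 and -2.99 on the arrays of SHR/NCrL and at -3.45 and -3.16 on those of SHR/SP. It was well above background on both WKY arrays and on none of the 4 SHR arrays. The log2 ratio was 4.27 lower in SHR (SE 0.36, adjusted p = 4.33e-05). The SHR level therefore has only an upper limit, and no fold is given. Over the ways of processing the difference lay between -6.50 and -2.96. On the arrays that failed quality control it was at 0.07 in WKY/NHsd and 0.18 in SHR/NHsd, so that this pair did not show the fall.

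Another 4 probes were above background on both WKY arrays and on no SHR array. *Hba-a3*, a haemoglobin α chain, was at 0.17 and 1.03 in WKY and at -2.97 and -2.90 in SHR (difference -3.53, SE 0.49, adjusted p = 0.00512). Other haemoglobin probes differed less, and copies of these genes are too alike to assign a signal with certainty: *Hba-a1* differed by -0.45 and *Hbb* by -0.58, with the lowest level of *Hbb* in SHR/NCrL (-1.59) and nearly equal levels in SHR/SP (-0.14) and WKY/NTac (0.06). *Mettl24*, a methyltransferase-like gene, was at 0.81 and 0.75 against -2.32 and -2.25 (difference -3.06, SE 0.36, adjusted p = 0.00228). Set against the dimmest signal well above background, or the probe's own where higher, its Cy3 level was at least 6.76-fold higher in WKY. This bound is open to dye bias and holds only for the processing that gave it. *B3gat2*, a glucuronyltransferase, fell by 1.47 on the log2 scale, and A_64_P021924 by 2.13 (at least 4.24-fold in Cy3 level by the same bound).

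Conversely, 3 unnamed probes were well above background on all SHR arrays and on no WKY array. A_64_P081939 was at -2.36 and -2.09 in WKY and at 1.69 and 0.84 in SHR (difference 3.49, SE 0.59, adjusted p = 0.0164). A_64_P140148 was at -1.98 and -2.00 against 1.42 and 0.70 (difference 3.05, SE 0.41, adjusted p = 0.00492), and A_64_P012111 differed by 1.30. By the bound on the Cy3 level used above, these were at least 7.02-fold and 1.75-fold. Over the ways of processing, however, their log2 differences went down to 2.02 and 0.71. For A_64_P081939 that bound was 13.2-fold, above the 11.2-fold of its ratio, so it is no lower limit of the ratio. Over all probes, 27 were well above background on all SHR arrays and no WKY array and 119 the other way round, of which 3 and 5 were called. The strains had 4 and 2 arrays, so these counts rest on unequal demands and cannot be compared.

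Other large falls were measured above background in both strains. *Trim55*, a ubiquitin ligase of striated muscle, was at 0.82 and 1.17 in WKY, at -0.75 and -0.33 on the arrays of SHR/NCrL and at -0.71 and -0.70 on those of SHR/SP (difference -1.61, SE 0.20, adjusted p = 0.00336). LOC302022, which the study names as similar to a nidogen, was at 1.22 and 0.27 against -2.76 and -2.64 (difference -3.45, SE 0.61, adjusted p = 0.0221). *Mst1*, the ligand of a receptor tyrosine kinase, fell by 2.16 (SE 0.32, adjusted p = 0.00743), *Slc35g2* by 1.42, *Map7* by 1.37, *Ntrk2*, the receptor of brain-derived neurotrophic factor, by 1.37 and the receptor phosphatase *Ptprj* by 1.31. Other probes of *Ntrk2* differed by 0.06 and -0.58 and that of *Ptprj* by -0.17, none called. Of 18 called genes with more than 1 probe, all probes went the same way in 13, and only *Tlr3* had more than 1 probe called.

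Further large rises spanned secreted, membrane and metabolic proteins. *Pcmtd1*, of the protein carboxyl methyltransferase family, was at -1.50 and -1.56 in WKY and at 0.86 and 0.56 in SHR, with a difference of 2.24 (SE 0.15, adjusted p = 3.89e-06) on one probe and -0.37 on the other. *Dio3*, which inactivates thyroid hormone, was at -2.23 in WKY/NCrL and -0.25 in WKY/NTac, and at 0.87 and 0.66 on the arrays of SHR/NCrL and 2.08 and 2.10 on those of SHR/SP (difference 2.66, SE 0.48, adjusted p = 0.0233). The WKY pools stood far from each other, and without WKY/NCrL or without SHR/SP its adjusted p was 0.36 and 0.38. The secreted proteins *Srpx2* and *Ism1* rose by 1.91 and 1.79, the membrane protein *Lrrn3* by 1.81, the nucleotide enzyme *Prps2* by 1.75, *Klhdc8a* by 1.55 and the phosphatase *Dusp26* by 1.39.

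Some smaller rises were also picked out after their values were seen. *Hes1*, a target of Notch, was at -0.60 and -0.58 in WKY and at 0.72 and 0.52 in SHR (difference 1.21, SE 0.17, adjusted p = 0.00668). *Csrp2*, a LIM protein of smooth muscle, was at -0.60 and -0.80 against 0.42 and 0.57 (difference 1.20, SE 0.20, adjusted p = 0.0129). *Snai1*, a repressor of epithelial genes, differed by 0.74 (SE 0.15, adjusted p = 0.0431).

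Genes that earlier work tied to blood pressure or metabolism in SHR gave no call among 7, with 6 lower and a median of -0.46. *Cd36*, a fatty acid transporter, was at -0.17 and 0.25 in WKY and -0.19 in SHR/SP, but at -3.43 in SHR/NCrL. The difference was -1.85 (SE 1.16, adjusted p = 0.80), and another *Cd36* probe differed by 0.05. At 6 weeks the first probe was at -3.33 in SHR/NCrL, -2.04 in SHR/NHsd and 1.12 in SHR/SP, and on the failed array of SHR/NHsd at 5 months it was at -2.45. *Endog* was at 0.36 and 0.14 against -0.81 and -0.40 (-0.85, adjusted p = 0.16) and *Fads1* at 0.65 and 0.49 against -0.29 and -0.20 (-0.81, adjusted p = 0.075).

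Oxidant and antioxidant genes (21 genes, median 0.02), genes of the response to corticoids (13, median -0.12) and clock genes (13, median 0.19) gave no call. The largest members were *Nqo1* (-0.47), *Gpx3* (0.45) and *Sod3* (0.44) in the first, *Fkbp5* (1.22, adjusted p = 0.27) and *Zbtb16* (0.91, 0.75) in the second, and *Dbp* (1.18, 0.24) and *Cry1* (-1.09, 0.24) in the third. The same *Fkbp5* probe was called at 6 weeks, in the same direction (1.77, adjusted p = 0.0231 by limma). *Nox4*, *Sod1* and *Cybb* differed by 0.25, 0.04 and 0.16. *Dbp* and *Cry1*, which act in opposite phases of the clock, were at -0.37 and -0.99 against -0.14 and 1.13, and at 0.23 and 0.70 against -0.50 and -0.77. The time of day of dissection is not given in the sources used here.

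The differences of 5 months were set beside those of 6 weeks, an age before established hypertension. The fit shares its estimate of spread between the ages, and the pools are of different animals. At 6 weeks 87 probes were called (0.286%), and 39 of the 115 were called at both ages, 18 higher and 21 lower at both. The other 76 were called at 5 months and not at 6 weeks, 42 higher and 34 lower. Of all 115, 113 had the same direction at 6 weeks and 104 had the larger difference at 5 months, the age at which they were chosen. The exceptions in direction were *Snai1* (-0.13 at 6 weeks) and A_64_P164240 (0.05). The share of all probes with the same direction at both ages was not counted, so 113 of 115 has no background here.

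Whether a difference changed with age is tested by the strain by age interaction, and no probe passed it (0 of 30367 by limma at an adjusted p under 0.05). At an unadjusted p under 0.05 it held 1253 probes (4.13%), of which 53 were among the 115. The 115 were chosen for their difference at 5 months, which is itself part of the interaction. A larger share among them thus follows at least in part from that choice and is no evidence of a change with age. The 76 probes called at 5 months and not at 6 weeks are therefore not shown to differ by age.

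Among called probes the largest interactions were those of A_64_P166514, *Dio3*, *Ltbp2*, A_64_P140148 and *Klhdc8a*. *Dio3* was between -2.03 and -1.73 in the 3 WKY pools of 6 weeks and between -1.76 and -0.79 in the SHR pools, so its difference was 0.42 at 6 weeks and 2.66 at 5 months (interaction 2.25, unadjusted p = 0.00276). *Ltbp2* differed by 0.56 at 6 weeks and by 2.41 at 5 months (interaction 1.85, unadjusted p = 0.00237). *Klhdc8a* differed by 0.04 and 1.55 (interaction 1.51, unadjusted p = 0.000223), and A_64_P166514 by -0.45 and -2.73 (interaction -2.28, unadjusted p = 0.00078). *Thbs4* differed by 2.07 (SE 0.33, adjusted p = 0.0124) at 6 weeks, where SHR/SP was at -0.53 and the other SHR pools at 0.89 and 1.21 (interaction 1.13, unadjusted p = 0.0462).

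At the other end, the strain differences of *Chmp1b*, *Alkbh4*, *Pnkd*, *Tmem14a* and *Tlr3* were nearly the same at both ages. They were -0.90 and -0.89 for *Chmp1b*, -0.79 and -0.78 for *Alkbh4*, -0.83 and -0.81 for *Pnkd*, 1.02 and 1.00 for *Tmem14a* and 1.45 and 1.43 for *Tlr3*, with 5 months first. Other probes of *Alkbh4* (-0.08 and 0.01) and *Pnkd* (-0.06 and -0.14, the brighter probe) did not share these differences. *Slitrk5* (-4.27 and -3.83), *RT1-CE10* (2.67 and 2.49) and *Enpp1* (1.54 and 1.68) were also large at both. *Gja5*, *Thbd*, *Ddah1* and *Rgs4* were small at 6 weeks (-0.22, -0.21, -0.24 and -0.51) and not called there.

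**Figure D5:**
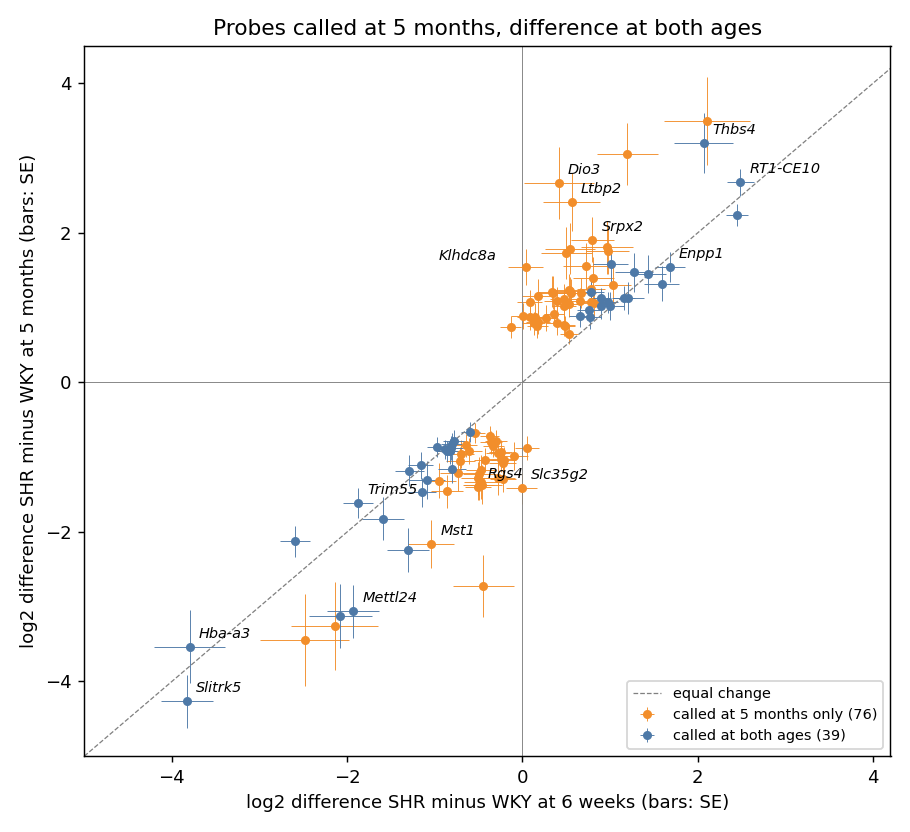
Log2 difference SHR minus WKY at 5 months (y axis) against that at 6 weeks (x axis) for the 115 probes called at 5 months, with standard errors as bars. Blue points were called at both ages (39) and orange ones at 5 months (76), and the dashed line marks equal differences. Most orange points lie farther from 0 on the y axis than on the x axis, as *Dio3* does with 2.66 against 0.42, and *Slitrk5* and *Hba-a3* lie near the line.

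The slides and the arrays left out were examined for their effect on these differences. Each slide held both SHR pools, but WKY/NCrL lay on slide 1 and WKY/NTac on slide 2, so that at 5 months slide and WKY subline cannot be told apart. Within slide 1 there were 16 calls and within slide 2 there were 42, of which 10 and 19 were among the 115. With slide as a block 110 probes were called, 103 of them among the 115. On the pair of arrays that failed quality control 91 of the 115 (79.1%) differed in the same direction, against 53.3% of all probes. With that pair included, 17 probes were called.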

How the data were processed

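Vessel RNA pools were measured on Agilent rat arrays with 2 colours. The authors extracted spot intensity values with Feature Extraction 10.7.3.1 and deposited them beside log2 values (pool over reference) that they made in R 3.0.0 with limma: normexp background correction (offset 15), loess within arrays and averaging of replicate probes. The deposited log2 ratios were used. Ratios rebuilt from the scanner files correlated with them at 0.999883 or above, which settles scale and direction. Control rows (140) were left out. All columns were assigned to arrays.

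Strains were compared with limma 3.58.1 in R 4.3.3 (lmFit, eBayes) on the 14 passing arrays with a factor of 4 strain and age groups, as in the study's methods, and with a common correlation of arrays of a pool (duplicateCorrelation, 0.444). Benjamini-Hochberg adjustment covered 30367 probes, with calls at an adjusted p under 0.05. The number of pools limits the precision. Probes were named through a RefSeq table of GRCr8 (18355 probes, 60.4%), with 4 probes named from the study's text. Probe sequences were not used here. Promoters are RefSeq's for GRCr8.

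Lists used the brightest probe per gene. Genes were named by rule: the 15 largest rises and falls among called probes, called list members with their other probes, *Thbs4* and *Atf6*, called probes above background in 1 strain, up to 4 members of lists without a call, and those with the largest and smallest interaction, with other genes, and members of lists that hold a call, picked out after their values were seen. Members, lists and tests were chosen with earlier results of these data known. Not every pair of same-numbered pools deviated together (12 pairs, correlations of -0.14 to 0.392), so numbers were not taken to pair samples. The alternatives tried are given with their effect in the closing section.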

Additional observations from a re-analysis of the deposited data

How the results depend on the processing

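The calls at 5 months (115, of which 60 higher and 55 lower in SHR) depended on the processing in number. Among 133 named probes and 26 alternatives, no called difference changed sign. Differences that were not called changed sign in 59 of all 3447 combinations of probe and alternative. Where pools do not overlap, leaving out a pool or keeping to 1 slide could not turn a difference. Averaging repeat arrays, fitting 5 months alone, the trend and robust fit, slide as a block and leaving out a 6-week pool do not alter its size. Under these settings the sign was thus fixed in advance. Of 779 list medians under the alternatives (30 lists), 49 changed sign and 80 moved by more than 1 SD of the list mean between pools of a strain. Ratios rebuilt from the scanner files gave 120 calls, but a background offset of 50 gave 216 (115 higher, 101 lower), processed signals of Feature Extraction 24 (12 and 12) and median centring in place of loess 43 (22 and 21). Averaging repeat arrays gave 11 (4 and 7), 1 array per pool 10 (3 and 7), including the failed arrays 17 (11 and 6), and a fit of the 5-month groups alone 52 (24 and 28). Within slide 1 there were 16 (9 and 7) and within slide 2 there were 42 (9 and 33). Fits within a slide, of 5 months alone or with 1 array per pool use fewer arrays by construction. Leaving out 1 pool at a time gave 10 to 162 calls, 4 to 100 higher and 4 to 85 lower. The 6-week pools, which enter through the shared spread, were left out as an alternative added after the data were seen, and gave 52 (SHR/SP) to 162 (WKY/NHsd). Without SHR/NHsd of 6 weeks 36 were lower. Called interactions ran from 0 to 4 without 1 pool. With the replicate number as a block they came to 36, and that block gave 135 calls at 5 months, 54 higher and 81 lower. The number shared at 5 months joined pools whose deviations correlated at -0.14, so that block pairs nothing known. For the other settings the cause was not tested. The test channel alone (133), no dim probes (131), trend and robust (102), slide as a block (110) and probes of a gene averaged (104) stayed within 1.5 times of the reported count. With 2 pools per strain, a difference must be large against the spread between sublines to be called.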
